A study of Mus musculus with 6 samples.

Results

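The genes examined here are 10 markers by which hematopoietic stem cells are sorted or recognised: Kit, Ly6a, Cd34, Flt3, Slamf1, Cd48, Procr, Esam, Fgd5 and Cd27. The rule lists them by symbol and uses no measured value, and 9 of the 10 had a probe set that the platform annotation pairs with that symbol alone, out of 19938 genes measured in this way. Ly6a, which encodes Sca1, was not analysed here. Each of the 9 genes had exactly 1 such probe set. RNA came from long-term hematopoietic stem cells of bone marrow of mice lacking latexin (Lxn-/-, with exons 2 to 4 of Lxn deleted) and of WT mice with an intact gene. All mice were C57BL/6 females of 8 to 12 weeks. Each genotype was represented by 3 arrays, each with RNA of about 100000 cells pooled from 10 to 20 animals. The sort took cells negative for lineage markers, positive for Sca1 and c-Kit, negative for CD34 and negative for a marker written as Flt2. The series asks which genes differ in these cells once latexin is gone.

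Blood formation rests on rare stem cells in the marrow that share the surface proteins Sca1 and c-Kit with their first progeny, the multipotent progenitors. In mice the long-lived stem cells are separated from those progenitors by the absence of CD34 and Flt3, or, in another scheme, by the presence of CD150 (Slamf1) and the absence of CD48. Procr, Esam and Fgd5 are further markers of the stem cell compartment. Fgd5 encodes an intracellular exchange factor and serves as a reporter locus rather than as an antibody target. CD27 is a costimulatory receptor of lymphocytes that is also found on multipotent progenitors and many stem cells.

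The values are log2 expression values from robust multi-array average (RMA) normalization. A percentile below is the position of a probe set among the 19938 genes on the same array. Probes differ in affinity, so percentiles show how bright a probe set was and do not order the genes by transcript number. As a measure of background, the 95th percentile of 1210 probe sets of odorant and vomeronasal receptors was 6.93. The arrays correlated at 0.986 to 0.994 over all probe sets. The first principal component of the probe sets with a gene symbol held 38.8% of their variance. It set WT replicate 3 (23.3) apart from the other 5 arrays (-12.6 to 7.97). Lxn had 8.66, 8.78 and 8.78 in the Lxn-/- arrays, against 8.99, 9.09 and 9.55 in the WT arrays, so the groups did not overlap, although a signal remained. The difference was -0.47 (SE 0.14, limma unadjusted p = 0.0101, adjusted p = 0.993), and -0.30 without WT replicate 3. The sources used here do not say which exons the probes cover.

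Kit encodes the receptor of stem cell factor, and its protein is required by the sort. Kit had 12.81, 12.90 and 12.96 in the Lxn-/- arrays, against 12.80, 12.86 and 12.90 in the WT arrays. All 6 values lay in the top 1% of genes, at the 99.3rd to 99.5th percentile, and the genotypes overlapped. Its spread was small: the pooled SD within genotypes was 0.064, at the 19.9th percentile of the SDs of the 14017 genes brighter than background.

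Cd34 encodes a sialomucin of progenitor and endothelial cells, and the sort kept cells without its protein. The Cd34 probe set gave 13.21, 13.01 and 13.30 in the Lxn-/- arrays, against 13.08, 13.15 and 13.14 in the WT arrays. Among all genes it ranked between 46 and 91 from the top, at the 99.5th to 99.8th percentile. The sort selected against the protein, while the probe set was among the brightest on every array of both genotypes. Since probes differ in affinity, that brightness gives no transcript number and is no test of the sort. The arrays measured no surface protein, and in bulk RNA the presence of some cells with much Cd34 RNA cannot be told apart from a lower amount in all cells, just as fewer cells of a type and less RNA per cell cannot be told apart in any result below. CD34 belongs to a small family of sialomucins with Podxl and Podxl2, whose probe sets differed between genotypes by 0.12 (SE 0.095) and 0.014 (SE 0.079) and did not pass the test.

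Flt3 encodes the receptor of Flt3 ligand, which marks multipotent and lymphoid-primed progenitors. Flt3 had 12.18, 11.59 and 12.20 in the Lxn-/- arrays, against 12.05, 11.95 and 11.77 in the WT arrays. It ranked between 355 and 943 of all genes, at the 95.3rd to 98.2nd percentile. The lowest array was Lxn-/- replicate 2, and the genotypes overlapped. The labels write the negative marker as Flt2, a name that the RefSeq gene table lists as a synonym of Fgfr1, a fibroblast growth factor receptor, while it lists Flk2 as a synonym of Flt3. Fgfr1 had 9.32, 9.09 and 9.28 in the Lxn-/- arrays, against 9.18, 9.15 and 8.96 in the WT arrays, at the 59.5th to 64.8th percentile. Whichever gene the label means, its probe set was above the receptor background on all 6 arrays.

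The promoters of Cd34 and Flt3 are shown because these genes encode surface proteins used to leave cells out, one named in the labels and the other in common schemes. Each stretch holds 250 bases before and 50 after the RefSeq start site, from build GRCm38.p6, written 5′ to 3′ on the strand of the gene. Capitals mark, on either strand, the letters of a GATA motif (GATAA), a RUNX motif (TGTGGT) and an ETS motif (AGGAAG), named for 3 families of blood cell transcription factors. The Cd34 stretch lies at chr1:194938571-194938870 on the plus strand and the Flt3 stretch at chr5:147400440-147400739 on the minus strand.
Cd34 promoter: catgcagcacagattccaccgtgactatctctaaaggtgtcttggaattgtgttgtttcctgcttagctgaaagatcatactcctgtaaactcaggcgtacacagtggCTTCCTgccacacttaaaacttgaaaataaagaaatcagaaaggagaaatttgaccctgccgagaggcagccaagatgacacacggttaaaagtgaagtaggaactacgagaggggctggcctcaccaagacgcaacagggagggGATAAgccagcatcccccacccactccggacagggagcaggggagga
Flt3 promoter: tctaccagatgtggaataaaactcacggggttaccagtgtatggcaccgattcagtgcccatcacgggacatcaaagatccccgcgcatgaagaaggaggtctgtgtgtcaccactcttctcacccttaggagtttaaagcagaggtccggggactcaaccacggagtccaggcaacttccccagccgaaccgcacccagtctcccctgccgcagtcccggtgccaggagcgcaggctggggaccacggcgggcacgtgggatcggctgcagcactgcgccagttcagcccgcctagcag
The Cd34 stretch held 1 GATA and 1 ETS motif and the Flt3 stretch none of the 3 motifs. Of the 32851 promoters in the table, 25.4% held the GATA motif, 35.4% the ETS motif and 16.8% the RUNX motif. Among the 8 marker genes with a promoter there, 2 held GATA, 5 ETS and 1 RUNX motifs. Ly6a and Esam had none in the table. A match describes letters in this window and not a bound site.

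The sort also removed cells with lineage markers. The labels do not list the antibodies, so 15 genes of antigens in common lineage cocktails were examined, of which 11 were measured. Their mean percentiles ran from 18.4 to 81.7 with a median of 48.8, and Cd3d and Cd8b1, which encode T cell antigens, were below the receptor background by mean. The brightest were Il7r, the interleukin 7 receptor of lymphoid precursors, at the 73.8th to 88.6th percentile, and Itgam, the Mac1 integrin of myeloid cells, at the 66.0th to 80.4th percentile. None of the 11 passed the test between genotypes. None had genotypes without overlap, against 8.98% of the 23410 probe sets tested, and 0 of 11 lies close to that share. The 2 of lowest unadjusted p in limma were Klrb1c, an NK cell receptor gene, with a difference of 0.31 (SE 0.26), and Cd3d, with 0.13 (SE 0.17). Ly6g, the antigen of the Gr1 antibody and chosen here after its values were seen, varied most: it had 8.68, 6.72 and 10.14 in the Lxn-/- arrays, against 9.05, 8.25 and 6.71 in the WT arrays, so 1 array of each genotype was below the receptor background.

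**Figure D1:**
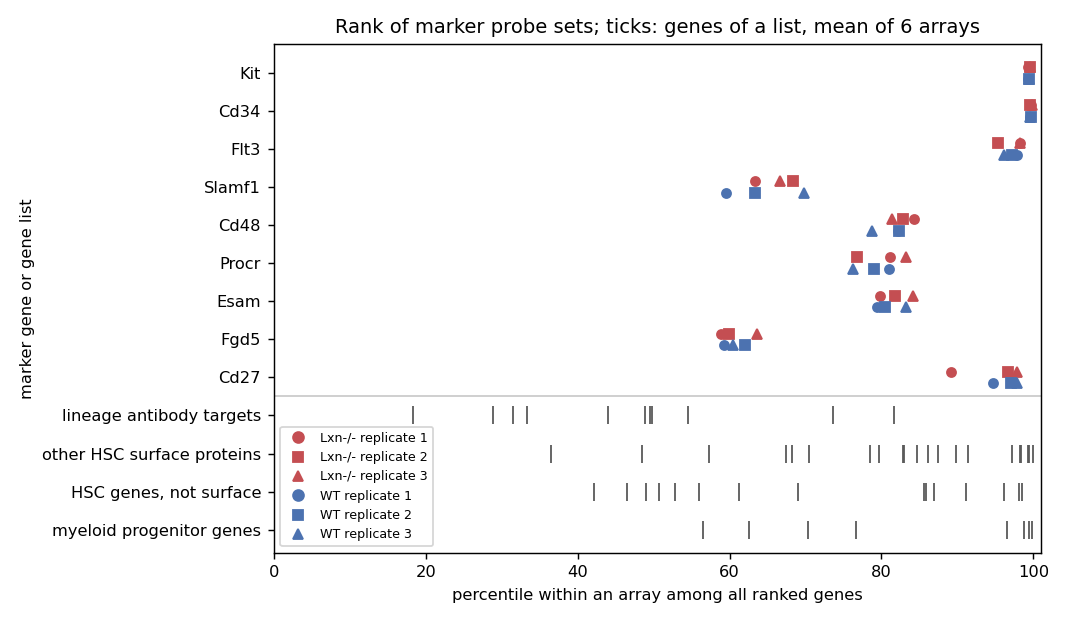
Percentile of each marker probe set on each array (x axis, among 19938 genes), with Lxn-/- arrays above WT arrays in each row and symbols for replicate numbers; ticks in the lower rows are single genes of 4 lists, averaged over 6 arrays. Kit and Cd34 sit above the 99th percentile on all arrays and Flt3 above the 95th, and the 11 lineage antibody targets lie between the 18.4th and 81.7th.

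Slamf1, or CD150, and CD48 are members of the SLAM family of adhesion and signalling receptors, and CD48 is found on progenitors and most blood cells. Slamf1 had 9.23, 9.55 and 9.42 in the Lxn-/- arrays, against 8.96, 9.24 and 9.63 in the WT arrays, at the 59.6th to 69.8th percentile. Cd48 had 10.55, 10.44 and 10.34 in the Lxn-/- arrays, against 10.37, 10.41 and 10.18 in the WT arrays, at the 78.7th to 84.3rd percentile. Both probe sets were above background on all arrays, and for both the genotypes overlapped.

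The genes of this family lie side by side on chromosome 1 in the order Cd244a, Ly9, Slamf7, Cd48, Slamf1, Cd84 and Slamf6 among measured genes. The promoters of Cd48 (chr1:171681742-171682041, plus strand) and Slamf1 (chr1:171766882-171767181, plus strand) are shown because sorting schemes use these near neighbours in opposite ways. Capitals mark the same 3 motifs.
Cd48 promoter: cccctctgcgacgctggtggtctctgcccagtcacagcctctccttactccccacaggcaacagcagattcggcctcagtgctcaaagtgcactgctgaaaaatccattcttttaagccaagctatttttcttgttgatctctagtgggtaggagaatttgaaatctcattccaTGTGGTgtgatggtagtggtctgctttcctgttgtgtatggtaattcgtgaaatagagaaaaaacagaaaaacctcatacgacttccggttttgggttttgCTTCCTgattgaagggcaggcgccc
Slamf1 promoter: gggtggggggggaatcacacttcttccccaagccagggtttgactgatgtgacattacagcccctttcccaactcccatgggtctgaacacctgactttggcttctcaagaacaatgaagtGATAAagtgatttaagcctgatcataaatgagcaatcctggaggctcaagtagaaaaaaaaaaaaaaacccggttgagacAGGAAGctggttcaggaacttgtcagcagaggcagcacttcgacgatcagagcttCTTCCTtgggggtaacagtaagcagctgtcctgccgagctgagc
The Cd48 stretch held 1 RUNX and 1 ETS motif, and the Slamf1 stretch 1 GATA and 2 ETS motifs. Between genotypes the 7 other SLAM family genes differed by a median of -0.049 (0.0052 without WT replicate 1 and 0.025 with array weights), with 3 higher and 4 lower by mean, and none passed the test. Of the 7, 3 had groups without overlap, against 8.98% of all 23410 probe sets tested, and 2 were lower with an unadjusted p under 0.05, against 2.43% of them. Slamf7, a receptor known from plasma cells and NK cells, had 9.70, 9.84 and 9.63 in the Lxn-/- arrays, against 10.42, 10.05 and 10.43 in the WT arrays. Its groups did not overlap, with a difference of -0.57 (SE 0.12, limma unadjusted p = 0.00116, adjusted p = 0.993), whereas those of the adjacent Cd48 did. Slamf9 also did not overlap, with -0.34 (SE 0.092, unadjusted p = 0.00621, adjusted p = 0.993). Slamf8, named after its values were seen, was the other gene without overlap and was higher in Lxn-/- by mean (0.22, SE 0.11). The 8 plasma cell markers, which were above background, had list means of 10.20, 10.26 and 10.14 in the Lxn-/- arrays, against 11.04, 10.55 and 10.71 in the WT arrays, and their part in the Slamf7 value was not tested.

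Procr, or CD201, is the endothelial protein C receptor and marks stem cells with high repopulating activity. Procr had 10.33, 10.06 and 10.45 in the Lxn-/- arrays, against 10.30, 10.21 and 10.03 in the WT arrays, at the 76.2nd to 83.2nd percentile. The thrombin receptor gene F2r, through which protein C can signal, had a difference of 0.050 (SE 0.15), and Proc, the gene of the ligand itself, was below background by mean. None of the 4 genes of this pathway passed the test, although all were higher in Lxn-/- by mean, with a median of 0.068 (-0.0018 without WT replicate 1). Pros1, a cofactor of protein C, differed by 0.086 (SE 0.12) and Thbd, its activator thrombomodulin, by 0.099 (SE 0.096).

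Esam encodes an adhesion molecule of tight junctions that stem cells share with endothelium. Esam had 10.25, 10.38 and 10.51 in the Lxn-/- arrays, against 10.20, 10.30 and 10.49 in the WT arrays, at the 79.4th to 84.1st percentile. Fgd5 had 8.94, 8.997 and 9.23 in the Lxn-/- arrays, against 8.93, 9.15 and 9.03 in the WT arrays, at the 58.9th to 63.6th percentile. Its 5 measured relatives of the Fgd family had a median difference of 0.048 with 0 past the test. That median was -0.099 without WT replicate 3, -0.022 without Lxn-/- replicate 1, -0.032 with array weights and -0.0021 with quantile normalization. Of the 5, 1 had groups without overlap, against 8.98% of probe sets: Fgd3, at 0.14 (SE 0.077, limma unadjusted p = 0.111). Esam and Fgd5 are also active in endothelial cells, whose 7 markers had list means of 9.26, 9.29 and 8.51 in the Lxn-/- arrays, against 9.08, 8.77 and 9.48 in the WT arrays. The part of endothelial RNA in the values of Esam and Fgd5 was not tested.

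Cd27 was the marker with the widest spread. Cd27 had 10.91, 11.83 and 12.10 in the Lxn-/- arrays, against 11.47, 11.91 and 12.12 in the WT arrays. Its range over the 6 arrays was 1.22, and its pooled SD of 0.50 stood at the 98.9th percentile of genes brighter than background. The array of Lxn-/- replicate 1 lay below all others, yet the groups overlapped because Lxn-/- replicates 2 and 3 lay above WT replicate 1. Cd70, the gene of its ligand, was below background by mean, as was Kitl, the gene of stem cell factor, while Flt3l, the gene of Flt3 ligand, lay at the 73.0th to 77.0th percentile and differed by 0.091 (SE 0.079). Of these ligand genes and Proc, 0 of 4 passed the test.

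**Figure D2:**
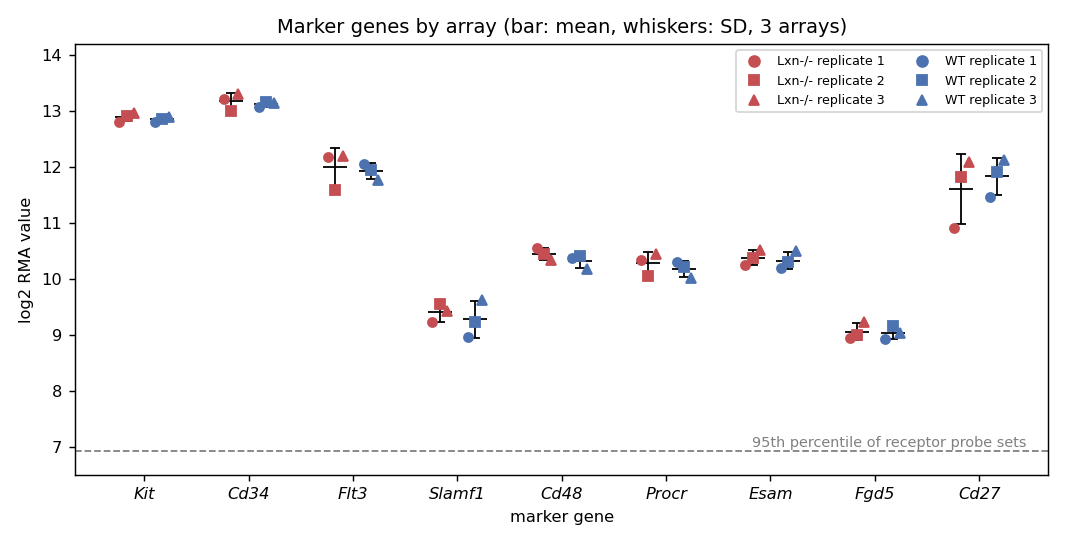
Log2 RMA value (y axis) of the 9 measured marker genes on each array, with Lxn-/- (red) left of WT (blue), symbols for replicate numbers, bars for means and whiskers for SD over 3 arrays; the dashed line is the receptor background of 6.93. The groups overlap for every gene, and Cd27 in Lxn-/- replicate 1, at 10.91, stands lowest of its 6 values.

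Between genotypes no marker gene could be called different. In limma 0 of 9 passed an adjusted p of 0.05, as did 0.0% of the 23410 probe sets tested, and 0 of 9 had an unadjusted p under 0.05, against 3.9% of probe sets. The groups overlapped for all 9, while 8.98% of probe sets had no overlap. By mean, 8 were higher in Lxn-/- and Cd27 was lower, with a median of 0.052 for the 9 genes and -0.013 for all genes; 45.5% of probe sets were higher. That count was 6 of 9 when arrays were centred on a common median, where Kit (-0.0049) and Fgd5 (-0.029) turned, and 7 with quantile normalization (Fgd5, -0.020). It was 4 without Lxn-/- replicate 3, where Cd34 (-0.013), Flt3 (-0.038), Esam (-0.013) and Fgd5 (-0.070) turned, and 5 without WT replicate 1, where Slamf1 (-0.033), Esam (-0.015) and Fgd5 (-0.035) turned.

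The intervals show how large a difference in probe set values these arrays leave room for. How closely such values follow the amount of RNA was not tested. For Kit, means were 12.89 ± 0.08 in Lxn-/- and 12.85 ± 0.05 in WT (SD, n = 3 each), and the difference of 0.040 (SE 0.069) had a 95% interval of -0.12 to 0.20, or 0.920-fold to 1.15-fold. For Cd34, means were 13.18 ± 0.15 in Lxn-/- and 13.12 ± 0.04 in WT (SD, n = 3 each), and the interval ran from -0.15 to 0.25 around 0.051 (SE 0.087). For both genes a 1.5-fold change in the probe set value lay outside the interval. For Flt3 the difference was 0.067 (SE 0.17, interval -0.31 to 0.45), and for Slamf1 it was 0.13 (SE 0.16, interval -0.25 to 0.51). Cd48 differed by 0.12 (SE 0.089, interval -0.086 to 0.32) and had the lowest unadjusted p of the 9, 0.217 in limma. Procr, Esam and Fgd5 differed by 0.10 (SE 0.12), 0.052 (SE 0.10) and 0.017 (SE 0.097). For 8 genes the interval lay within 1.5-fold in both directions. The exception was Cd27, at -0.22 (SE 0.30), whose interval of -0.91 to 0.46 corresponds to 0.533-fold to 1.38-fold; without Lxn-/- replicate 1 its difference was 0.13. Exact two-sided permutation p-values of the 9 genes ran from 0.4 to 0.9, where 3 arrays against 3 cannot give less than 0.1.

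**Figure D3:**
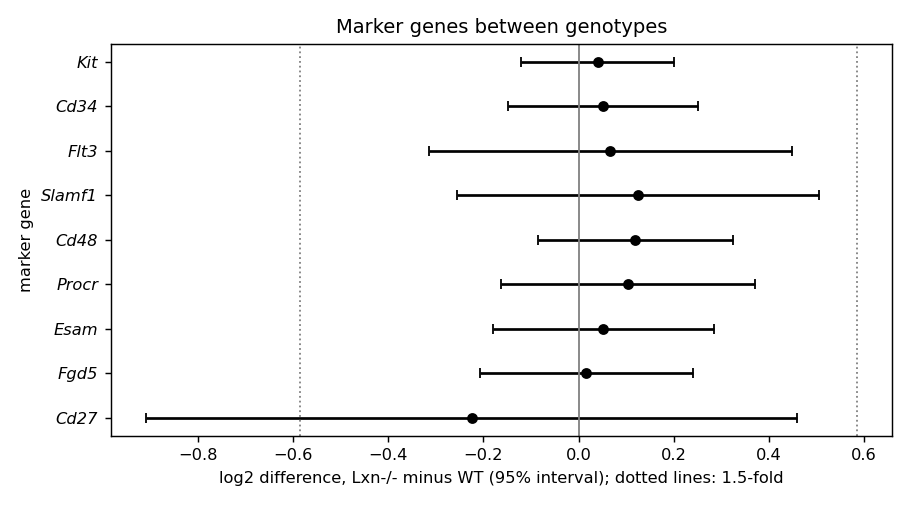
Log2 difference of each marker gene, Lxn-/- minus WT (x axis), with limma's 95% interval as whiskers; dotted lines mark 1.5-fold. All 9 intervals include 0, and the interval of Cd27 alone, from -0.91 to 0.46, crosses a dotted line.

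Some markers varied between arrays alike in both genotypes. Kit, Esam and Cd27 were lowest in replicate 1 and highest in replicate 3 of each genotype. Of the 9 markers, 3 had the replicate numbers in the same order in both genotypes, against 20.3% of all genes. With so few markers, 3 of 9 lies close to that share. Cd34, Flt3, Slamf1, Cd48, Procr and Fgd5 had a different order in each genotype. Slamf1 was also lowest in replicate 1 of each genotype. Means of 21 other surface proteins of stem cells, none of them among the 10 genes, rose from replicate 1 to replicate 3 in each genotype. They were 10.61, 10.68 and 10.75 in the Lxn-/- arrays, against 10.62, 10.68 and 10.70 in the WT arrays. So did means of 15 stem cell genes without a surface product, with 9.72, 9.75 and 9.92 in the Lxn-/- arrays, against 9.74, 9.84 and 9.89 in the WT arrays. The 99th percentile of log2 values over all genes rose in this order too. It was 12.54, 12.57 and 12.59 in the Lxn-/- arrays, against 12.53, 12.57 and 12.64 in the WT arrays. Array medians did not rise in this order. Kit kept to the 99.3rd to 99.5th percentile, while the percentiles of Esam and Cd27 rose in the same order. The part of this shift of bright values in the markers was not tested. The labels do not say what the replicate numbers mark.

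Over the 6 arrays, Kit and Esam correlated with Pearson's r = 0.932 and Spearman's rho = 0.943 (exact permutation p = 0.00833 and 0.0167, adjusted over 36 pairs 0.2 and 0.3). Without the 2 arrays farthest from the median of Kit, r was 0.830. Flt3 and Procr correlated with r = 0.931 and rho = 0.943 (exact permutation p = 0.0111 and 0.0167, adjusted 0.2 and 0.3), and r was 0.903 without the 2 arrays farthest from the median of Flt3. Cd48 and Cd27 ran in opposite directions, with r = -0.770 and rho = -0.829 (exact permutation p = 0.0556 and 0.0583, adjusted 0.286 and 0.3). Without the 2 arrays farthest from the median of Cd48, r was -0.164. Leaving them out narrows the range of Cd48, so the lower r cannot show whether the relation rests on those arrays. None of the 36 pairs passed after adjustment, and 4 had an unadjusted p under 0.05 for r. With values centred within each genotype 0 passed as well and 8 had an unadjusted p under 0.05. The strongest of these pairs was Kit and Cd27 (r = 0.987, permutation p = 0.00278, adjusted 0.1), whose r without centring was 0.791. These permutations shuffled centred values across both genotypes, although centring ties together the values within a genotype. The p-values for centred values are therefore not exact and can be too small.

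**Figure D4:**
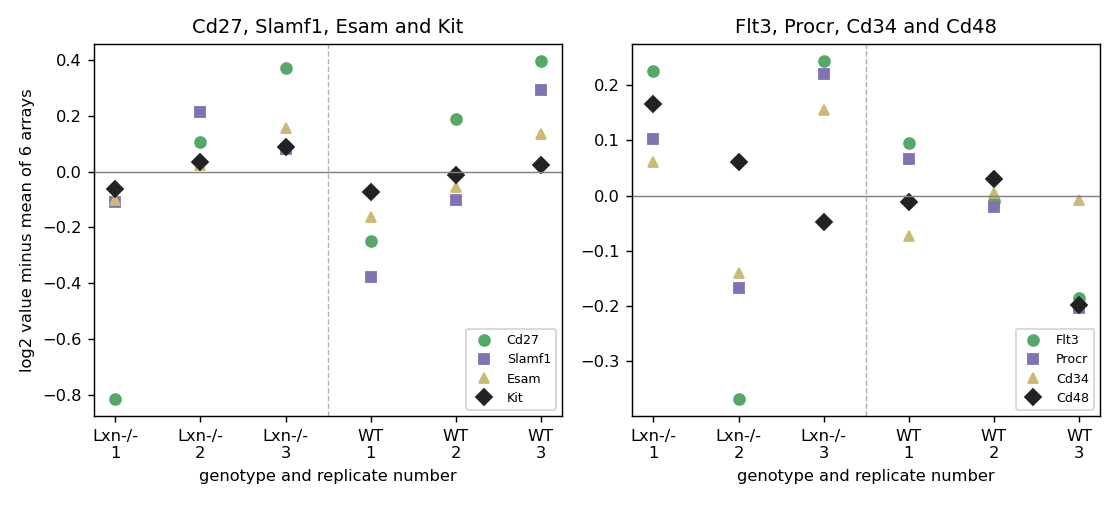
Log2 value of 8 marker genes minus the mean of the gene over 6 arrays (y axis; the 2 panels have different scales), by genotype and replicate number, with Lxn-/- left of WT. In the left panel Cd27, Esam and Kit are lowest in replicate 1 and highest in replicate 3 of each genotype; in the right panel Flt3 and Procr have their highest value in Lxn-/- replicate 3.

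Flt3 and Procr were high and low on nearly the same arrays as the markers of neutrophils, cells that lineage antibodies are meant to remove. The 8 neutrophil markers, all brighter than background by mean, had list means of 10.18, 8.53 and 11.37 in the Lxn-/- arrays, against 10.78, 9.84 and 8.03 in the WT arrays. Both Procr and this list were highest in Lxn-/- replicate 3 and lowest in WT replicate 3, with Lxn-/- replicate 2 next lowest. Flt3 was highest in the same array and lowest in Lxn-/- replicate 2, followed by WT replicate 3. Lxn-/- replicates 1 and 3 and WT replicate 1 were the 3 highest arrays for Flt3, Procr and the list. They were also the 3 lowest on the first principal component of the probe sets with a gene symbol, which holds 38.8% of their variance. Fgd2, a relative of Fgd5, also had its 3 highest values on these arrays. So did Emb, listed with lymphoid-primed progenitors, and Alcam, listed with other stem cell surface proteins. Both were lowest in Lxn-/- replicate 2, followed by WT replicate 3, so the pattern was not confined to neutrophil markers. Other genes of those lists, such as Il7r and Tek, did not have it. Of the neutrophil list, 7 of 8 genes were higher in Lxn-/- by mean with a median of 0.53 and 0 past the test. That median was -0.12 without Lxn-/- replicate 3 and -0.21 without WT replicate 3, against 1.31 without Lxn-/- replicate 2 and 1.19 without WT replicate 1. The brightest, Ngp and S100a8, which encode granule and alarmin proteins, differed by 0.50 (SE 0.81) and 0.75 (SE 0.76). The part of neutrophil RNA in the values of Flt3 and Procr was not tested.

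**Figure D5:**
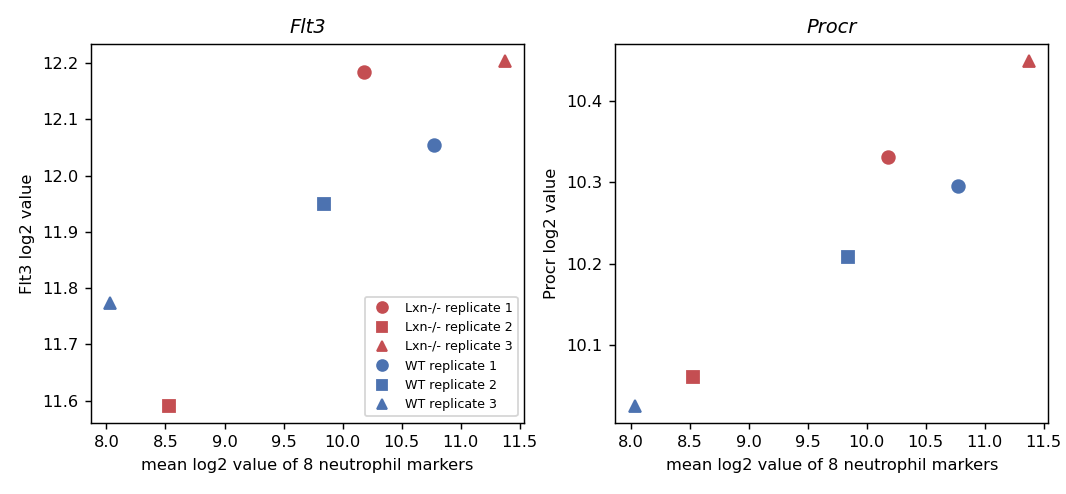
Log2 value of Flt3 (left) and Procr (right) on the y axes against the mean log2 value of 8 neutrophil markers on the x axes, 1 point per array, Lxn-/- in red and WT in blue. Lxn-/- replicate 3 is highest on all axes, and Lxn-/- replicate 2 and WT replicate 3 are the 2 lowest on all axes.

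Ly6a belongs to a family of small lipid-anchored surface proteins, whose members are no stand-in for Ly6a itself. Of 6 measured Ly6 genes, 5 were lower in Lxn-/- by mean with a median of -0.24, and 0 passed the test. Groups of 3 did not overlap, against 8.98% of probe sets, and the same 3 were lower with an unadjusted p under 0.05, against 2.43%. With Thy1, a lipid-anchored protein of the immunoglobulin superfamily that was listed beside them, the median was -0.12 (-0.35 without Lxn-/- replicate 2 and -0.30 without Lxn-/- replicate 3). Ly6d, a surface protein of lymphoid progenitors, had 9.22, 9.32 and 9.40 in the Lxn-/- arrays, against 10.43, 9.63 and 10.60 in the WT arrays. Ly6k had 8.25, 8.13 and 8.08 in the Lxn-/- arrays, against 8.51, 8.52 and 8.51 in the WT arrays, a difference of -0.36 (SE 0.068, limma unadjusted p = 0.000751, adjusted p = 0.993). Ly6e, a family member found on many blood cells, lay at the 99.8th to 99.9th percentile and differed by -0.12 (SE 0.090). The B cell markers, 8 of 8 lower by mean and 0 past the test, had a median of -0.36 beside these values (-0.17 without WT replicate 3 and -0.12 with array weights), and their part in them was not tested. The relatives of Kit and Flt3, the macrophage receptor gene Csf1r and the platelet-derived growth factor receptor genes Pdgfra and Pdgfrb, did not pass the test, with 0.13 (SE 0.15) for Csf1r and 0.15 (SE 0.11) for Pdgfrb, and Pdgfra was below background by mean.

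Other genes of stem cells and of committed cells were set beside the markers. Among stem cell genes without a surface product, the transcription factor genes Hlf and Meis1 lay at the 97.8th to 98.5th and 98.1st to 98.9th percentile, and the mean percentiles of all 15 measured genes ran from 42.2 to 98.5 with a median of 69.0. Among 8 myeloid progenitor genes, which mark the committed cells below the stem cell level, Mpo and Elane, which encode enzymes of neutrophil granules, lay at the 99.8th to 99.9th and 99.01st to 99.8th percentile, within a range of 56.5 to 99.8 and a median of 86.6 for the list. Mki67, the gene of the proliferation antigen Ki67, lay at the 97.4th to 98.7th percentile, within a range of 61.3 to 98.3 and a median of 92.8 for 8 cell division genes. Each list thus held bright and less bright probe sets, and the genes named are the brightest. Between genotypes Hlf differed by 0.0052 (SE 0.079), Meis1 by 0.13 (SE 0.082), Mpo by -0.022 (SE 0.10) and Elane by -0.14 (SE 0.19), none past the test. All 8 cell division genes were lower in Lxn-/- by mean, while 45.5% of probe sets were higher. Their median difference was -0.19 (-0.083 without Lxn-/- replicate 3), with 0 past the test.

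By the rule for genes with a profile like a gate gene, Endov and Lcmt2 had the highest r with Kit (0.990 and 0.988 over 6 arrays). Those for Cd34 were Tes and Wbp1 (0.990 and 0.987), and those for Flt3 were Itpripl2 and Sirt3 (0.994 and 0.992). Among 13336 candidate genes, 19, 29 and 41 reached r over 0.95 with Kit, Cd34 and Flt3. With 6 arrays and so many candidates, unrelated genes can also reach such values, and the number of them was not estimated. The genes named are the highest of all candidates, so the values carry no test and show no shared regulation.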

How the data were processed

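Affymetrix mouse Gene ST arrays measured RNA of 3 Lxn-/- and 3 WT cell pools, from 100 ng of total RNA per the labels' protocols. The deposited values are on a log2 scale and were normalized by RMA with Partek 6.0 among the tools used, per the submitters' processing notes. The sources used here do not state the background step or the probe set definitions. Of 35557 probe sets, GEO's platform annotation pairs 21789 with 1 gene symbol and 1621 with several. Those 23410 were tested with limma 3.58.1 in R 4.3.3 (lmFit and eBayes, default settings, no covariates, two-sided, Benjamini-Hochberg adjustment over all 23410, threshold 0.05). Genes were taken only from probe sets with 1 symbol, the brightest by mean of 6 arrays where there were several. Errors are SD over 3 arrays or limma's moderated SE. The number of arrays limits the precision, and the design text calls the pools biological samples. Simulated data with known changes were used to test the limma fit. Other settings were another normalization, centring, filter on dim probe sets, all probe sets, an intensity trend, array weights, a replicate block, gene means and leaving out each array.

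The marker genes and lists were chosen with earlier results of these data known. Genes were named from a rule: all markers, Lxn and Fgfr1, up to 2 genes of lowest p per list, the 2 brightest in lists of other cells, and the 2 genes with the highest r to Kit, Cd34 and Flt3 among those above background. Not every gene that the rule gives is named. For the erythroid, plasma cell and T and NK cell lists, the brightest gene is named without the next brightest. The brightest genes of stem cell and family lists, genes below background, Fgd2 and Ly6g were chosen after their values were seen. So were Emb, Alcam and Tek, and the count of Ly6 genes without Thy1. Promoters are from RefSeq, build GRCm38.p6.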

Additional observations from a re-analysis of the deposited data

How the results depend on the processing

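No setting brought a marker gene or any probe set past an adjusted p of 0.05 in limma. Between 527 and 1807 probe sets had an unadjusted p under 0.05, but the number tested differed. The 527 were of 16297 tested without dim probe sets, and the 1807 were of 23410 tested with array weights. With all 35557 probe sets tested there were 1597. Without Lxn-/- replicate 2 Flt3 reached an unadjusted p of 0.0306 (0.27, adjusted p = 0.972), and without WT replicate 3 Slamf1 reached 0.0446 (0.30, adjusted p = 1.0). Of 126 marker differences under other settings 14 changed sign, 10 of them with 1 array left out. With all arrays these were Kit (-0.0049) and Fgd5 (-0.029) with a common median, and Fgd5 with quantile normalization (-0.020) and array weights (-0.074). With 1 array left out, differences ran from -0.013 to 0.13 for Cd34, -0.038 to 0.27 for Flt3, -0.033 to 0.30 for Slamf1, -0.015 to 0.13 for Esam, -0.070 to 0.075 for Fgd5 and -0.47 to 0.13 for Cd27. Kit (0.0067 to 0.081), Cd48 (0.050 to 0.17) and Procr (0.019 to 0.21) kept their sign when single arrays were left out. The replicate numbers are not known to pair the arrays. Deviations of same-numbered arrays correlated at 0.37, -0.07 and -0.08, and 1 of 3 Lxn-/- arrays correlated best with its own number. With the replicate block 0 probe sets and 0 marker genes passed, 1173 probe sets had an unadjusted p under 0.05 against 914 without it, and Cd27 differed by -0.22 (SE 0.12, unadjusted p = 0.107, adjusted p = 0.911). Percentiles moved by at most 5.5 points when all probe sets were ranked or gene means used. Each marker had 1 probe set, so its own value was the same there, and only the values it was ranked among differed. Of 364 list medians under other settings, 10 moved by more than the SD of the list mean within genotypes. That SD is large for lists that vary widely, so a median can change sign without being counted. The neutrophil median of 0.53, for example, was -0.12 without Lxn-/- replicate 3 and was not counted as moved.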

Other observations

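Lists of markers of other cells held bright and dim probe sets, and brightness is not comparable between probes. Mean percentiles ran from 43.1 to 99.8 over 6 erythroid genes (median 74.8), from 62.1 to 99.5 over 8 plasma cell genes (median 76.4) and from 18.4 to 96.7 over 10 T and NK cell genes (median 51.8). The brightest of each list follow. Car1, a carbonic anhydrase of early erythroid cells, lay at the 99.7th to 99.9th percentile and differed by -0.18 (SE 0.18). Jchain, which encodes the joining chain of secreted antibodies, lay at the 99.3rd to 99.8th percentile and differed by -0.30 (SE 0.10). Nkg7, a granule protein gene of T and NK cells, lay at the 95.9th to 97.9th percentile and differed by -0.0013 (SE 0.12). Of these genes none passed the test. The 6 erythroid genes were all lower in Lxn-/- by mean, with a median of -0.28 (-0.053 without Lxn-/- replicate 3) and 0 past the test. All 8 plasma cell genes were lower in Lxn-/- by mean, with 0 past the test. All 8 had groups without overlap, against 8.98% of probe sets. Each also had a limma unadjusted p under 0.05, against 2.43% of probe sets in that direction. Mzb1 (-0.80, SE 0.12) and Sdc1 (-0.48, SE 0.08) had the lowest, 0.000162 and 0.000369 (adjusted p = 0.993 for both). The list was chosen with earlier results of these data known. By mean over 6 arrays, 4 of 7 stromal genes and 5 of 7 mast cell and basophil genes were brighter than background, with Kitl, Lepr, Pdgfra, Cma1 and Tpsb2 below it. On single arrays some of these exceeded it, such as Lepr with 7.37 in WT replicate 3.

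Of the 21 other surface proteins of stem cells, all were brighter than background, 13 were higher and 8 lower in Lxn-/- by mean, and 0 passed the test. Adgrg1, an adhesion receptor, lay at the 99.9th percentile on all arrays and differed by 0.033 (SE 0.070). The tetraspanin genes Cd81 and Cd9 differed by -0.16 (SE 0.11) and 0.12 (SE 0.067), and the integrin gene Itga2b by 0.14 (SE 0.085). Tcf15, a transcription factor gene of quiescent stem cells, had 7.77, 7.79 and 7.96 in the Lxn-/- arrays, against 8.14, 8.08 and 7.96 in the WT arrays, and differed by -0.22 (SE 0.082, limma unadjusted p = 0.0272, adjusted p = 0.993).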
